A study of Homo sapiens with 15 samples.

Results

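The comparison set 3 libraries of K562 cells with dCas9-KRAB and the guide RNA (gRNA) named Cr4 against 3 libraries with dCas9-KRAB and the gRNA named Cr10. They were chosen by their titles and are 6 of the 15 libraries in the series. All 15 came from K562, an established human erythroleukemia line. The cells had been transduced with lentivirus and selected with puromycin, so the vector and its selection are shared by every group. The other 9 libraries, 3 in each group, were of K562 with dCas9-KRAB and no gRNA, with dCas9 and Cr4, or with dCas9 and Cr10. The design text describes transduction in triplicate. Where nothing says that numbered libraries came from separate transductions, a p-value reflects only how much these libraries vary, which may be technical. The gRNA target field names the globin HS2 enhancer for both gRNAs, and the question the comparison addresses is whether the choice of gRNA at one enhancer changes chromatin accessibility under the same repressor.

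Nuclease cuts DNA more readily where nucleosomes are absent or loosened, so sequenced nuclease ends pile up as peaks over active promoters and enhancers. dCas9 is a Cas9 protein without cutting activity that a gRNA guides to a matching DNA site. KRAB is the repressor domain of many zinc finger proteins. It recruits the scaffold TRIM28 and, through it, the histone methyltransferase SETDB1 and heterochromatin proteins of the CBX family. HS2 is 1 of 5 hypersensitive sites, HS1 to HS5, that form the locus control region of the beta-globin cluster, and it is a strong erythroid enhancer that binds GATA1, TAL1 and NFE2. K562 cells express the embryonic and fetal globin genes, HBE1, HBG2 and HBG1, and little of the adult genes HBD and HBB.

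Of the 5 beta-globin promoters looked up, 1 was matched in the RefSeq promoter table. It is that of HBD, the minor adult globin, which carried a peak in all 15 lists and serves below as a reference for HS2. The 250 bases before its start, from GRCh38.p14, minus strand, chr11:5234484-5234733, are shown so that the comparison can be read against a globin promoter sequence. These GRCh38.p14 positions are separate from the hg19 positions of the peaks. Capitals mark the motifs found.
HBD: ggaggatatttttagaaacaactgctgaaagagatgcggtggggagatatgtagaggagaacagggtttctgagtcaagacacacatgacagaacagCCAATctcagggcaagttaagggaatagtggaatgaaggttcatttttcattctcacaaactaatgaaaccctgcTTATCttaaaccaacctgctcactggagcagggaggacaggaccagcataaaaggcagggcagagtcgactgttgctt
Motifs were searched on both strands. CCAAT matched 1 time, 153 bases before the start, and 32.0% of the 35116 promoters in the table hold it in a window of the same length. GATAA, the letters that GATA factors bind, matched 1 time on the opposite strand, where it reads TTATC, and 20.4% of promoters hold it. CACCC, the letters that KLF1 binds, had 0 matches in this window and occurs in 54.7% of promoters. A match is a description of the letters, not of a bound site.

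The 6 lists held between 60522 and 88822 peaks. The lists with Cr4 held 66874, 62032 and 88822 and those with Cr10 held 60522, 67779 and 70093, so the groups overlapped (difference of means 6445, exact permutation p = 0.7, two-sided). The implied summit pileup, the number of overlapping fragments at a peak's summit, had medians of 48, 40 and 59 with Cr4 and 44, 45 and 43 with Cr10 (exact permutation p = 0.6). Replicate 3 with Cr4 was the deepest of the 6 by both measures. With 3 libraries against 3 the exact test cannot give a p below 0.1. The total number of fragments per library is not given in the sources used here. Of the K562 markers, GATA1, TAL1, KLF1, NFE2, HBG1, HBG2, HBA1, HBA2 and HBZ had a peak in 15 of 15 lists. CD3E of T cells, PAX5 of B cells, ALB of hepatocytes and INS of beta cells had one in 0 of these 6 lists. The CDKN2A interval, which is deleted in K562, also held no peak.

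HS2 was more accessible with Cr4 than with Cr10 on average, but the libraries of the 2 gRNAs overlapped. The measure was the rank percentile, the place of a peak by fold enrichment among the 53098 strongest peaks of its list, where 100 is the strongest and 0 means no peak among them. In hg19 the merged HS2 region spans chr11:5301766-5302230. With Cr4, HS2 stood at percentile 65.9, 48.0 and 64.6 in replicates 1, 2 and 3. With Cr10 it stood at 50.6, 1.94 and 19.0. The first Cr10 library lay above the second Cr4 library, and the other Cr10 libraries lay below every Cr4 library. Among same-numbered libraries the Cr4 value was the higher in 3 of 3, but the numbers are not known to pair libraries across the gRNAs. No share of regions with such an order is given here. These ranks order the deposited folds, which were not set to a common depth. At HS2 the fold was 8.55, 7.34 and 8.43 with Cr4 and 6.98, 4.84 and 5.79 with Cr10. These ranges did not overlap (exact permutation p = 0.1, the smallest this design allows). How often folds stood apart in this way over all regions is not given here. Folds also stood apart at the HBG1 promoter, there with Cr10 the higher (exact permutation p = 0.1). The mean percentiles of HS2 were 59.5 ± 10.0 (SD, n = 3) with Cr4 and 23.8 ± 24.7 (SD, n = 3) with Cr10. Their difference was 35.6 percentile points (SE 12.1 from limma), with an exact permutation p of 0.2. Over all 62858 regions tested, limma with Benjamini-Hochberg adjustment gave HS2 an adjusted p of 1.00. HS2 was 229th of these regions by p, and its difference was larger than that of 99.95% of them.

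In the control groups HS2 stood higher than in most Cr10 libraries. Without a gRNA it was at 70.4, 55.7 and 72.6. With dCas9 alone it was at 74.9, 52.4 and 44.6 for Cr4 and at 69.3, 84.2 and 49.9 for Cr10. Every one of these 9 libraries lay above the second and the third Cr10 library with dCas9-KRAB.

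The summit pileup at HS2 gave the same order of means. It was 97, 57 and 113 fragments with Cr4 and 66, 44 and 53 with Cr10. Only the second Cr4 library fell within the Cr10 range. Cr4 was again the higher in 3 of 3 same-numbered comparisons, with the same limit on pairing. To set libraries of different depth side by side, log2 of the pileup plus 1 was centred on each library's median over 38888 constitutive regions, those found in each of the 15 full lists. On that scale HS2 was at 0.44, 0.03 and 0.03 with Cr4 and at 0.11, −0.64 and −0.35 with Cr10. A value near 0 places HS2 at the level of a typical constitutive site, and the second and the third Cr10 library were below it. The difference was 0.46 log2 units (SE 0.19, limma), or 1.37-fold, with an exact permutation p of 0.3 and an adjusted p of 1.00. It came to 0.29 without the second Cr10 library, which held the lowest value. By p, HS2 was 77th of the 38888 regions on this scale, and its difference exceeded that of 99.8% of them. The local background at HS2, the pileup expected from the surrounding region, was 10.5, 6.90 and 12.5 with Cr4 and 8.60, 8.30 and 8.32 with Cr10, so the ranges overlapped.

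**Figure D1:**
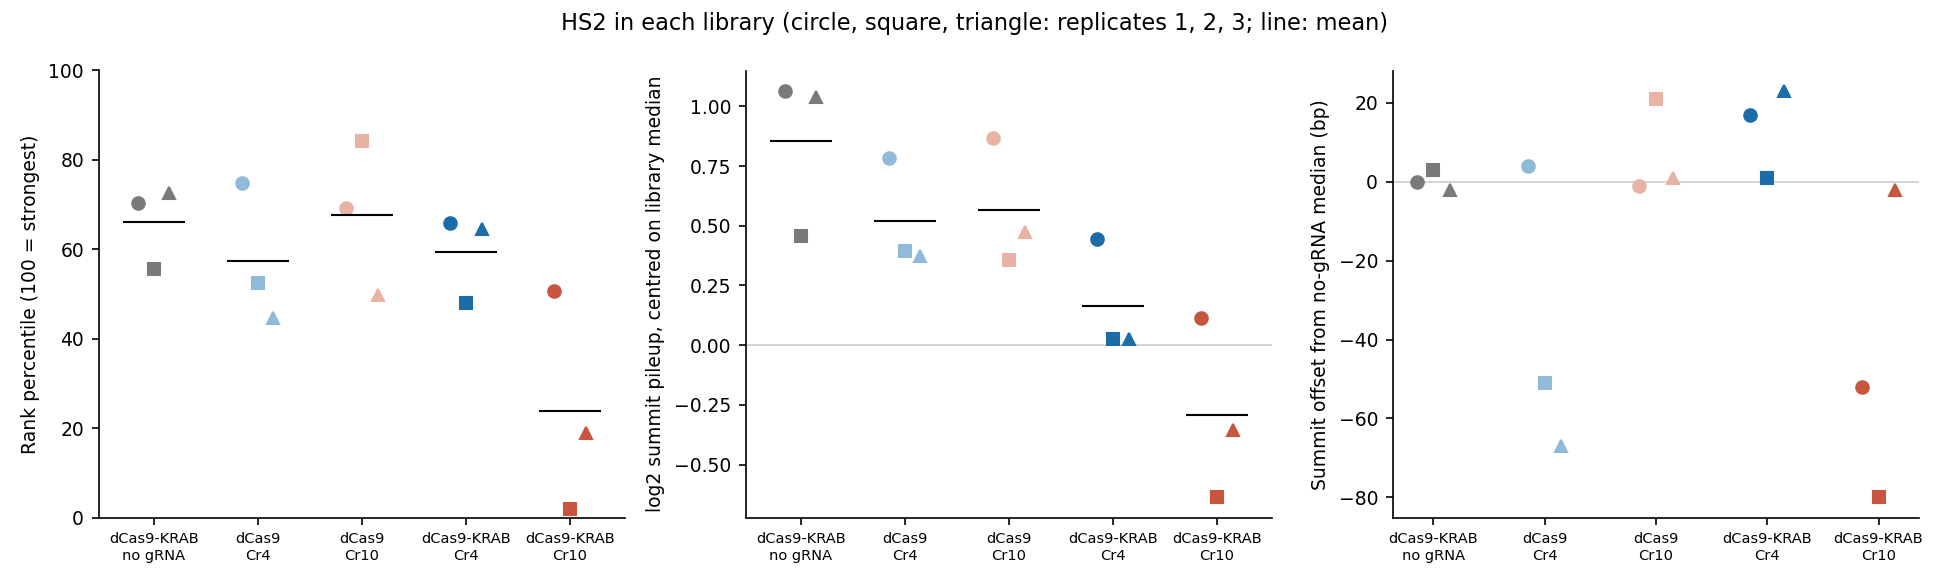
HS2 in each of the 15 libraries by group: rank percentile (left), log2 summit pileup centred on the library median (middle) and the distance in bp of the HS2 summit from the median summit without a gRNA (right). Circles, squares and triangles are replicates 1, 2 and 3 and lines are group means; under dCas9-KRAB the Cr4 mean of 59.5 percentile points lies above the Cr10 mean of 23.8, while single libraries overlap.

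The libraries without a gRNA had HS2 at 1.07, 0.46 and 1.04 on the centred log2 scale. Against them HS2 was lower by −0.69 (SE 0.19) with Cr4 and by −1.15 (SE 0.19) with Cr10. These differences share the same 3 control libraries and are given side by side only. With dCas9 alone the centred values were 0.78, 0.40 and 0.38 for Cr4 and 0.87, 0.36 and 0.47 for Cr10, so the 2 gRNAs overlapped and their difference was −0.05 (SE 0.19). The gRNA difference under dCas9-KRAB minus that under dCas9 was 0.51 log2 units (SE 0.27), and 0.33 without the second Cr10 library. In percentile points it was 46.1 (SE 17.1). Limma's test of this interaction, adjusted over all regions, gave an adjusted p of 1.00 on both scales, so a dependence of the gRNA difference on KRAB did not pass. It called 0 regions (0%) genome-wide on either scale.

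HS2 was also compared with other sites of the same library, which needs no scaling between libraries. The first reference was 3′ HS1, the hypersensitive site at the far end of the cluster and a CTCF site. The pileup at HS2 divided by that at 3′ HS1 was 1.29, 1.04 and 1.03 with Cr4. With Cr10 it was 0.892, 0.800 and 0.639, so HS2 lay under 3′ HS1 in all 3 of these libraries and above it in all 3 with Cr4. The groups did not overlap (log2 difference 0.53, exact permutation p = 0.1, the smallest this design allows). In the control groups the ratio ran from 1.47 to 1.69 without a gRNA, from 1.17 to 1.83 for dCas9 with Cr4 and from 1.27 to 1.69 for dCas9 with Cr10. Against the HBD promoter the ratio was 1.47, 0.966 and 1.18 with Cr4 and 0.957, 0.733 and 0.898 with Cr10 (log2 difference 0.47, exact permutation p = 0.1). These groups did not overlap either, although the second Cr4 library exceeded the first Cr10 library only narrowly. Against the other 6 sites, HS1, HS3, HS4, HS5, HBG1 and HBG2, the groups overlapped, with exact permutation p between 0.2 and 0.4. The geometric mean over the 8 references was 1.59, 1.05 and 1.22 with Cr4 and 1.20, 0.677 and 0.754 with Cr10 (exact permutation p = 0.2), against 1.44 to 1.99 without a gRNA. The 8 ratios share the HS2 value of each library and are not independent of each other. For these ratios, and for the orders that follow, no share over all regions is given here.

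Ordered by pileup among the 9 beta-globin sites with a peak in all lists, HS2 was 1st, 5th and 1st with Cr4 and 3rd, 8th and 8th with Cr10. It was 1st, 2nd and 1st without a gRNA. By percentile it was 3rd, 5th and 4th with Cr4 and 7th, 9th and 8th with Cr10, which did not overlap, although it was also 7th in 1 library of dCas9 with Cr4 and 1 of dCas9 with Cr10. Of the 15 libraries, the second and the third Cr10 library with dCas9-KRAB placed HS2 lowest in this order.

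The HS2 summits of the 2 gRNAs did not overlap in position, and neither did those of HS1 and 3′ HS1, while the width of HS2 did not separate the gRNAs. With Cr4 the summits lay at hg19 positions 5302009, 5301993 and 5302015 of chromosome 11. With Cr10 they lay at 5301940, 5301912 and 5301990. Their means were 58.3 bp apart (exact permutation p = 0.1). The nearest values, 5301993 and 5301990, were almost equal. Without a gRNA the summits were at 5301992, 5301995 and 5301990. With dCas9 alone the groups overlapped and the Cr4 mean was the lower, at 5301996, 5301941 and 5301925 for Cr4 and 5301991, 5302013 and 5301993 for Cr10. The means were 31.3 bp apart at HS1, also with the Cr4 mean the higher, and differed by −19.3 bp at 3′ HS1, with the Cr4 mean the lower (exact permutation p = 0.1 at each). The gRNAs are not aimed at either of these sites, so a separation of summits was not particular to HS2. For summit positions no share over all regions is given here. Widths at HS2 were 391, 350 and 424 bp with Cr4 and 408, 383 and 370 bp with Cr10 (exact permutation p = 1).

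As at HS2, no limma test passed after adjustment at the other sites of the locus control region. The percentile groups overlapped at each of them, as they did at HS2. HS1, the site nearest to the globin genes, at chr11:5296783-5297378, was at 52.6, 72.0 and 69.1 with Cr4 and 60.7, 79.7 and 79.9 with Cr10. Its ranges overlapped, with a difference of −8.89 percentile points (SE 12.6). HS3, an enhancer at chr11:5305792-5306310, was at 40.3, 40.1 and 31.0 with Cr4 and 21.5, 59.3 and 51.5 with Cr10. The Cr10 libraries lay on both sides of the Cr4 libraries, and the difference was −6.96 (SE 9.81). HS4, at chr11:5309327-5309737, had a difference of −4.90 (SE 9.60). HS5, a CTCF site at the far edge of the region, chr11:5312466-5312801, was at 42.2, 15.7 and 36.1 with Cr4 and 33.1, 12.8 and 10.9 with Cr10, a difference of 12.3 (SE 10.3). HS5 was thus the only other of the 5 sites with a higher mean under Cr4, and its groups overlapped. Its peaks were 256, 252 and 259 bp wide with Cr4 and 225, 237 and 226 bp with Cr10, which did not overlap (exact permutation p = 0.1). For widths no share over all regions is given here. On the centred log2 scale the differences were −0.14 for HS1, −0.14 for HS3, −0.18 for HS4 and 0.14 for HS5, each with an SE between 0.21 and 0.24. Without centring on library medians those of HS1, HS3 and HS4 were positive, at most 0.07.

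At the globin genes the fetal promoters had slightly higher means with Cr10 by rank and by log2 pileup under each scaling tried. Without centring the log2 differences came down to −0.01 at HBG2 and −0.06 at HBG1. In plain fragments the HBG2 mean was 67.7 with Cr4 and 65.3 with Cr10, and the HBG1 mean was 71.3 and 73.3. Leaving out single libraries took the HBG2 rank difference from −11.8 to 1.96 points. HBG2, at chr11:5275738-5276312, had centred log2 pileups of −0.29, −0.28 and −0.16 with Cr4 and −0.15, −0.11 and 0.18 with Cr10. The groups stood apart by a small margin, as they did at 4.7% of all regions on this scale (2.3% higher with Cr4 and 2.4% lower), with a difference of −0.22 (SE 0.19, exact permutation p = 0.1). By rank HBG2 overlapped, at 52.0, 32.6 and 52.3 against 60.1, 35.7 and 54.7, a difference of −4.54 (SE 8.34). HBG1, at chr11:5270839-5271354, was at 42.0, 39.5 and 43.0 with Cr4 and 53.7, 49.6 and 41.0 with Cr10. Those ranges overlapped, while the authors' folds, 6.52, 6.72 and 6.76 against 7.23, 7.64 and 7.17, did not. For folds no share over all regions is given here. The difference was −6.58 (SE 7.21) by rank and −0.27 (SE 0.18) in log2. Because HBG1 and HBG2 share almost all of their sequence, which copy a read came from is uncertain. HBD, at chr11:5255349-5256040, differed by −2.78 (SE 4.56) by rank and −0.0041 (SE 0.15) in log2. 3′ HS1, at chr11:5226033-5226442, differed by 0.945 (SE 5.07) and −0.07 (SE 0.20). The HBE1 promoter had a peak in 0 of the 6 lists and in 4 of 15, and the HBB promoter in 0 of 15. Without centring on the library medians the median over all regions was itself 0.19 higher with Cr4. All log2 differences here are relative to that shift, without which those of HBD and 3′ HS1 came to 0.20 and 0.14.

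**Figure D2:**
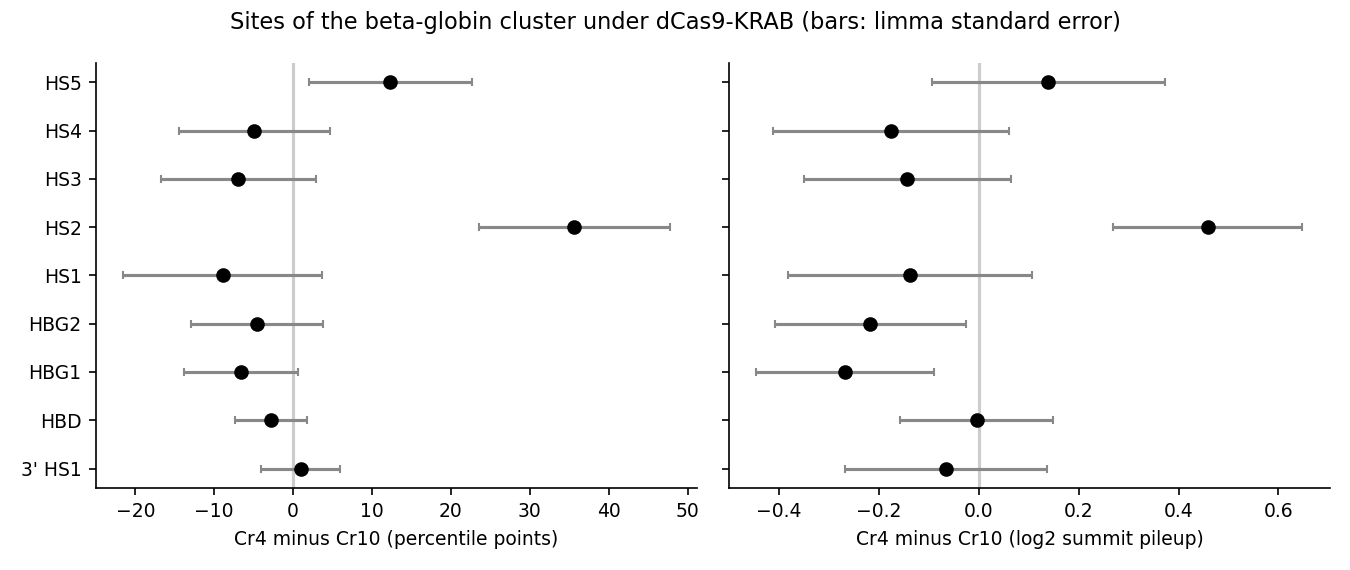
Difference between Cr4 and Cr10 under dCas9-KRAB at the 9 beta-globin sites with a peak in every list, in percentile points (left) and in centred log2 summit pileup (right). Points are differences of means of 3 libraries and bars are limma standard errors; HS2 at 35.6 points and 0.46 log2 units is the site farthest from 0 on both axes.

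Counted as a list, 3 of the 9 beta-globin sites had a higher mean percentile with Cr4 and 6 a lower one, with a median of −4.54. Over all regions 30462 were higher and 31629 lower of 62858, with a median of −0.04. Limma passed 0 of the 9 after adjustment, and 0 of all regions (0%). At an unadjusted p under 0.05 it passed 1 of the 9, HS2, and 2.65% of all regions. The percentile groups of the 2 gRNAs did not overlap at 0 of the 9 sites and at 5.81% of all regions, 2.99% higher with Cr4 and 2.82% lower.

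Around HS2, as at HS2, no region passed after adjustment over all regions. Within 10 kb there were 4 regions, HS2 and the 3 sites HS1, HS3 and HS4, and these 3 had differences between −8.89 and −4.90 points. Between 10 and 100 kb there were 12 regions, 7 of them higher with Cr4, with differences from −6.89 to 12.3. Between 100 and 1000 kb there were 38 regions, 21 of them higher with Cr4, from −28.5 to 23.2. In these distance bands 0, 0 and 2 regions had groups that did not overlap. At an unadjusted p under 0.05 the bands held 1, 0 and 3 regions, the 1 being HS2. Of the other 3, chosen for mention after their values were seen, chr11:4560769-4561206 was higher with Cr4 by 23.2 points (SE 10.2). The remaining ones, chr11:4572808-4573130 and chr11:5617718-5618437, were at −17.3 (SE 6.68) and −17.0 (SE 6.40). Within 1000 kb HS2 thus had the highest Cr4 minus Cr10 value of 54 regions.

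**Figure D3:**
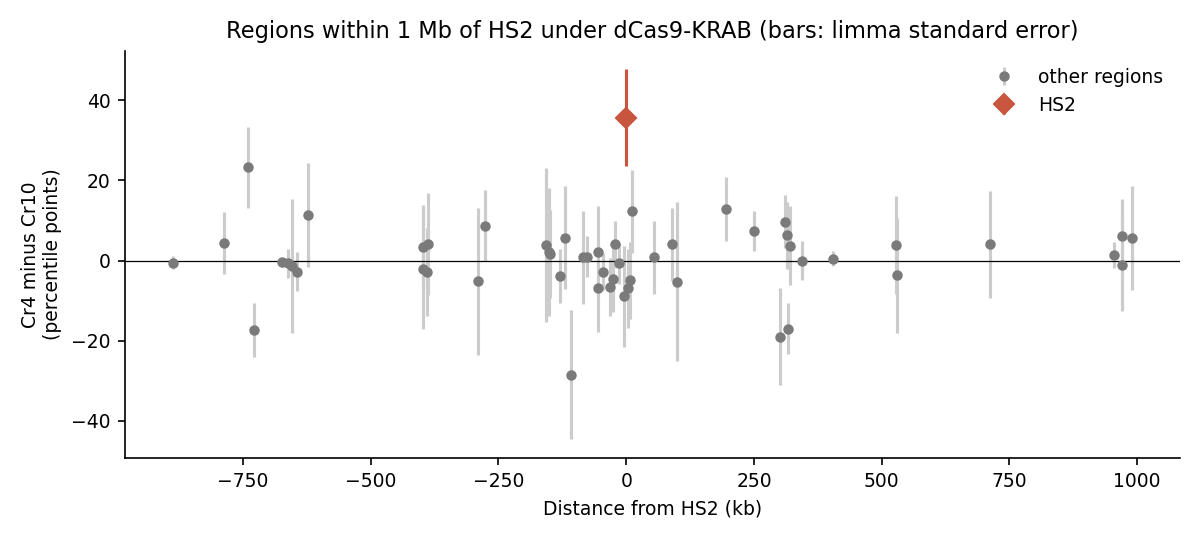
Difference in rank percentile between Cr4 and Cr10 under dCas9-KRAB for each tested region within 1000 kb of HS2, by distance in kb. Points are differences of means of 3 libraries and bars are limma standard errors; HS1, HS3 and HS4, within 10 kb of it, lie between −8.89 and −4.90 while HS2 is at 35.6.

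Elsewhere in the genome limma called 0 of 62858 regions by rank and 0 of 38888 by summit pileup at an adjusted p under 0.05. At an unadjusted p under 0.05 it passed 1666 regions by rank, 925 higher and 741 lower with Cr4, and 279 (0.717%) by pileup, 185 higher and 94 lower. Percentiles taken in the deposited lists of unequal length moved this split to 1201 higher and 94 lower, and quantile normalization of the pileup moved it to 167 and 150. The SD of the log2 difference over regions was 0.131, the 1st and 99th percentiles were −0.31 and 0.35, and 0 regions reached 1 log2 unit. Split by mean pileup into 4 equal parts, the strongest constitutive regions had a median log2 difference of −0.06 and the weakest one of 0.02. Medians per chromosome ran from −0.03 to −0.01, and on no chromosome did the library medians of the 2 gRNAs stand apart.

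**Figure D4:**
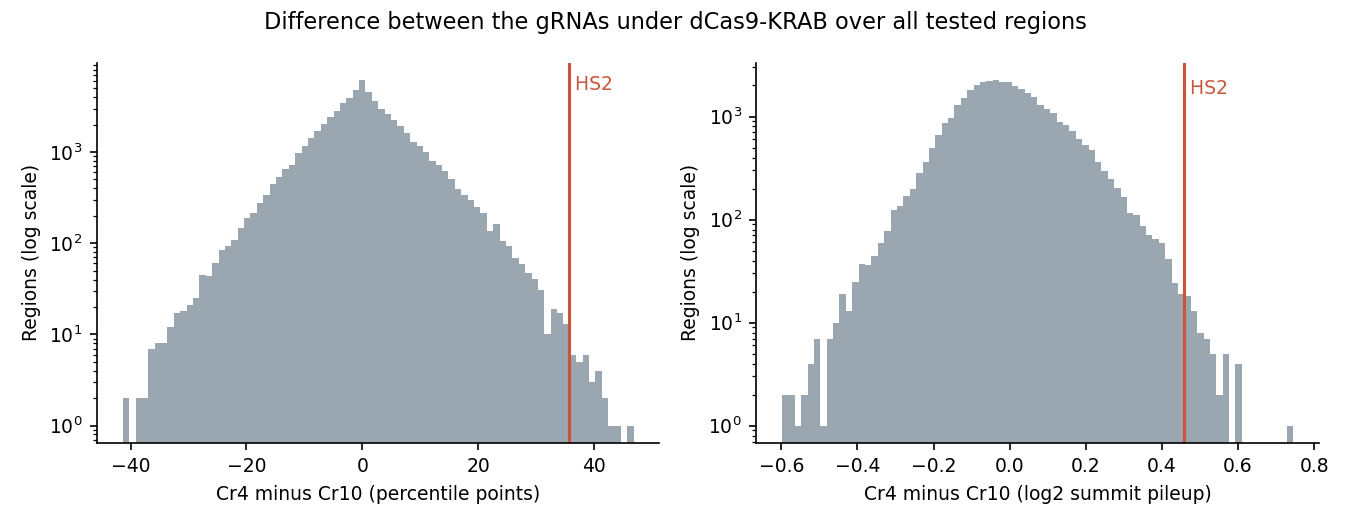
Distribution of the Cr4 minus Cr10 difference over 62858 regions in percentile points (left) and over 38888 regions in centred log2 summit pileup (right), with the number of regions on a log axis. The vertical line is HS2, at 35.6 points and 0.46 log2 units, in the upper tail of both distributions; none of these regions passed after adjustment.

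The regions with the lowest p are described although none passed (adjusted p = 1.00 for each). They carry no gene name here because gene positions on hg19 were not used. The first by rank was chr4:186518740-186519084, at 66.8, 70.0 and 78.4 with Cr4 and 36.8, 46.0 and 34.9 with Cr10, with a mean of 72.4 without a gRNA. Its groups stood far apart, with a difference of 32.5 points (SE 6.50), and its pileups were 37, 34 and 68 against 24, 30 and 30. The second, chr12:63187686-63188092, was at 79.4, 68.7 and 75.3 with Cr4 and 45.7, 39.3 and 51.5 with Cr10. Next, chr1:58981535-58981869, was at 60.2, 60.4 and 64.0 with Cr4 and 29.8, 26.4 and 23.5 with Cr10. All 3 were thus open with both gRNAs and in all 15 lists, and less so with Cr10. The region chr16:58446212-58446514 was among the first by both measures, at 34.3 points (SE 7.52) and 0.58 log2 units (SE 0.18). Its pileups were 38, 33 and 71 with Cr4 and 28, 23 and 26 with Cr10. Among the 10 regions higher with Cr4 the largest difference was 44.6 points (SE 10.0) at chr10:99038308-99038755, which was at 70.9, 47.4 and 55.2 with Cr4 and 0, 16.4 and 23.4 with Cr10.

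Of the 10 regions lower with Cr4, 8 had a mean percentile under 1 with Cr4, so they were at or below the end of the shortened lists there. A region needed a peak in 3 or more of the 15 shortened lists to be tested. It could therefore enter through the 3 Cr10 lists alone, so values of 0 with Cr4 are no support for a difference. The first of the 10, chr21:35360741-35361231, had a peak in 5 of the 15 shortened lists. It was at 0 in the 3 Cr4 libraries and at 23.9, 19.6 and 18.8 with Cr10. It nevertheless had a peak in all 3 deposited Cr4 lists, with pileups of 32, 26 and 63 against 42, 41 and 42. An exception was chr12:123755580-123756841, a broad region of 1262 bp open in all 15 lists, at 52.8, 46.7 and 50.5 with Cr4 and 76.2, 70.4 and 71.8 with Cr10. Its difference was −22.8 points (SE 5.51), and its mean without a gRNA was 70.7. By pileup the first region higher with Cr4 was chr15:79223245-79223683, with 53, 47 and 76 fragments against 31, 23 and 35, a difference of 0.74 (SE 0.20), the largest of all 38888. The next was chr7:55477191-55477538, at 0.57 (SE 0.18). The first lower with Cr4 were chr2:85470809-85471175 at −0.44 (SE 0.15), chr22:50745784-50746267 at −0.53 (SE 0.19) and chr12:96587699-96588589 at −0.44 (SE 0.15).

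The largest class of accessible sites was found in all lists of both gRNAs. Of the 98101 merged regions with a peak in any of the 6 deposited lists, 44854 (45.7%) had one in all 6. A peak in all 3 Cr4 lists and no Cr10 list was found at 360 regions (0.367%), and the converse at 41 (0.0418%). The Cr4 lists include the longest of the 6. After every list was shortened to 53098 peaks, 38122 of 69701 regions (54.7%) had a peak in all 6, 169 (0.242%) in the 3 Cr4 lists only and 125 (0.179%) in the 3 Cr10 lists only. Without the third Cr4 library, the longest, the deposited count with Cr10 only was 552 in place of 41; the cause was not tested. Leaving out any 1 library raised each of these 4 counts to more than 1.5 times its value, except that the Cr10-only deposited count was 58 without the second Cr4 library and the Cr4-only deposited count was 498 without the third.

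Sites exclusive to 1 gRNA were weak. The rule that chose them asks for no peak in any list of the other gRNA and so favours sites near the calling threshold. Their low pileup is therefore not a result about the gRNAs. The 360 regions with Cr4 only had a median mean pileup of 27.7 and a median width of 231 bp, and the 41 with Cr10 only had 22.0 and 223 bp. The median over all 397246 peaks of the 6 lists was 47 fragments and 302 bp. The strongest exclusive region with Cr4 was chr9:133723141-133723608, with pileups of 87, 60 and 111 over a mean local background of 33.7. The strongest with Cr10 was chr6:16760962-16761224, with 39, 39 and 37 over 13.6. Most of these sites also appeared in the other groups. Of the 360, only 1 had a peak in none of the other 9 libraries, the median was 5 of 9, and 34 had a peak in all 3 libraries without a gRNA. A peak in all 3 libraries of dCas9 with Cr4 and in none of dCas9 with Cr10 was found at 4 of the 360. The corresponding number for the 41 Cr10 regions, with the gRNAs exchanged, was 0. The same shares over all regions are not given here, so these counts cannot be set against a general rate.

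**Figure D5:**
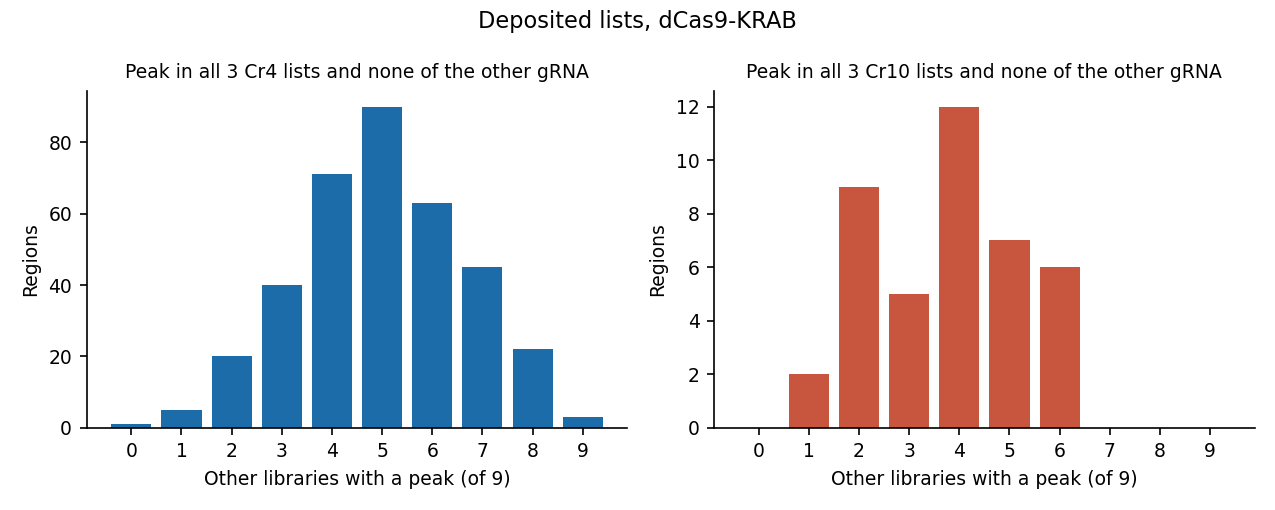
Number of regions found in each of the 3 full lists of 1 gRNA under dCas9-KRAB and in none of the other, by how many of the other 9 libraries also had a peak there (left, 360 regions with Cr4; right, 41 regions with Cr10). Both distributions centre on 4 to 5 of 9 libraries, and 1 region with Cr4 and 0 with Cr10 had a peak in none of them.

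Lists of the same gRNA were no more alike than lists of different gRNAs. The Jaccard index, the shared part of the regions of 2 shortened lists, was 0.675 to 0.707 within Cr4, 0.686 to 0.728 within Cr10 and 0.660 to 0.728 between them. The means were 0.696 within and 0.707 between the gRNAs.

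Promoters and enhancers of erythroid regulators gave small differences, mostly lower with Cr4. Of the 23 windows in the list 22 were tested, 4 were higher with Cr4 and 18 lower, and the median was −3.01 points, beside −0.04 over all regions. Limma passed 0 of the 22, also at an unadjusted p under 0.05, and at 0 of them did the groups stand apart, beside 5.81% of all regions. The largest difference was at BCL11A, the repressor of the fetal globin genes, chr2:60782044-60782508, at 33.0, 8.6 and 0 with Cr4 and 22.7, 21.7 and 26.5 with Cr10 (−9.75, SE 11.2). LMO2, a bridging subunit of the erythroid GATA1 and TAL1 complex, followed at chr11:33891956-33892454 with 0, 9.2 and 0 against 14.4, 16.6 and 4.4 (−8.72, SE 6.62). TAL1, a partner in that complex, at chr1:47697478-47698301, was at 58.8, 49.7 and 38.3 against 59.4, 49.5 and 60.9 (−7.67, SE 9.30). Cr4 and Cr10 libraries overlapped at all 3. NFE2, which binds HS2, had the highest value of the list, 3.24 (SE 5.97). On the centred log2 scale 21 windows were tested, 3 were higher with Cr4, and the median was −0.07, beside −0.02 over all regions. Over the strongest of the 4 equal parts of constitutive regions the median was −0.06. ALAS2, the erythroid heme synthesis enzyme, had a peak in 5 of the 15 deposited lists and was not tested.

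The genes of the KRAB repressor machinery stayed close together. Of the 5 windows 1 was higher and 4 were lower with Cr4, with a median of −0.35 points. CBX3, a heterochromatin protein, at chr7:26240884-26241969, differed by −5.93 (SE 7.11). SETDB1, the histone methyltransferase, at chr1:150898513-150899269, differed by 2.95 (SE 2.11). CBX5, another heterochromatin protein, at chr12:54652996-54653806, differed by −0.947 (SE 3.94). The remaining windows, the scaffold TRIM28 and the heterochromatin protein CBX1, differed by −0.088 and −0.348 points. ZNF10, a zinc finger gene whose KRAB domain is often used in such fusions, was at 95.2, 95.8 and 97.5 with Cr4 and 97.3, 96.5 and 96.1 with Cr10. The ranges overlapped, and the labels do not say which KRAB domain the vector held.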

How the data were processed

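Nuclei were lysed and digested with nuclease, per the labels' protocols, and each library was deposited as 1 narrowPeak list on hg19; lists were not pooled. The submitters' processing notes name CASAVA 1.3, BWA and bedtools. Which peak caller was used, and at which threshold, is not given in the sources used here. For each peak the authors deposited a fold, which is the ratio of its summit to the local background. They also deposited −log10 of a p-value and of a q-value. The authors' whole-number score was not used.

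Autosomal and X-linked peaks were put in order of fold. Each list was shortened to the 53098 strongest, which kept between 59.8% and 87.8% of the peaks of the 6 lists, and merging peaks that share 1 bp or more gave 78352 regions. Of these, 62858 had a peak in 3 or more libraries and were fitted by limma 3.58.1 with a mean-variance trend over all 15 libraries and 5 groups. The pileup k follows from fold = (k + 1)/(λ + 1), with λ the local background, and the Poisson p-value; a whole-number k was found for 100% of peaks, with a tolerance of 0.01 in −log10 p. That relation assumes a MACS-type caller. Tests are two-sided. Adjustment followed Benjamini and Hochberg, called at 0.05, and differences of 3 against 3 libraries were tested by exact permutation of all 20 splits. The limma step was tested on simulated data. Analyses ran under Python 3.11.15, numpy 2.4.6, pandas 2.3.3, scipy 1.17.1 and R 4.3.3.

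The libraries compared, the site lists and the windows were chosen with earlier results of these data known. Windows that carry gene and site names are hg19 positions from memory and were not checked against an annotation here. Named regions are HS2, the beta-globin sites, the regions of lowest p in each direction (10 by rank, 3 by pileup, of which those that add most are described), the 5 strongest exclusive regions of each gRNA, of which the first is described, the 3 erythroid and 3 co-repressor windows of largest difference and ZNF10. Some windows in the lists are not reported here. NFE2, ALAS2, TRIM28 and CBX1 were named after their values were seen. Deviations of same-numbered Cr4 and Cr10 libraries from their group means correlated across regions at 0.460, 0.187 and 0.111 on the pileup. By rank these correlations were 0.312, 0.0685 and 0.0811. The second Cr4 library correlated more with the third Cr10 library, at 0.264 on the pileup and 0.0904 by rank. The third Cr4 library correlated more with the second Cr10 library, at 0.128 and 0.130. Seen from the Cr4 libraries, same-numbered libraries were thus most alike only for replicate 1. The second Cr10 library correlated most with the second Cr4 library on the pileup, but with the third Cr4 library by rank.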

Additional observations from a re-analysis of the deposited data

How the results depend on the processing

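HS2 was higher with Cr4 under every alternative run, by 29.6 points in the deposited lists to 36.5 among the 50000 strongest peaks (0.88 on the log2 rank), and by 0.43 (quantile normalization) to 0.66 (no centring) in log2. Leaving out each library gave 24.7 to 49.0 points and 0.29 to 0.66 in log2, and the interaction 35.2 to 59.5 points and 0.33 to 0.71. No alternative called a region by rank or pileup, and the smallest adjusted p was 0.0609, by rank without the third Cr10 library.

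With the replicate number as a block, which cannot move a difference of means in this balanced design, the SE at HS2 was 10.8 for 35.6 points and 0.13 for 0.46 log2 units, and for the interaction 15.2 for 46.1 points and 0.18 for 0.51. The adjusted p from limma stayed at 1.00 in each, and 0 regions were called. Regions at an unadjusted p under 0.05 then numbered 503 by pileup, against 279 without the block, and 2105 by rank, against 1666. That pileup count was also 899 without the first Cr10 library, 422 without the second, 424 without the mean-variance trend, 915 on the log2 fold and 1 without centring. The cause was not tested.

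Requiring summits within 100 bp gave 114 deposited regions with Cr10 only, in place of 41; the cause was not tested. Leaving out each library gave 498 to 1922 deposited regions with Cr4 only and 58 to 552 with Cr10 only, and 425 to 521 and 306 to 543 in shortened lists, under a condition that asks for 1 list fewer. Of the values for single sites, 647 kept their sign and stayed uncalled, or changed sign by no more than 1 SE. The other 3 changed sign by more than 1 SE. They were HBD by rank without the first Cr10 library (2.40 points) and HBD and 3′ HS1 without centring. A value that kept its sign could change in size by more than 1 SE and still count among the 647. The design limits the tests, since 3 libraries a group cannot give an exact p below 0.1, and the total depth of the libraries is not known.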
